A study of Drosophila melanogaster with 18 samples.

Results

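The eye colour and founder marker genes are 8 of the 16727 distinct gene symbols in the read-count tables: the eye pigment genes w, st, bw, v, cn and ry, and the wing-hair genes mwh and flr. They were taken by symbol, and each symbol stood at 1 locus in the tables of both sexes. The rule that took them used no measured value, although earlier results of these data were known when they were chosen. RNA was sequenced from whole Drosophila melanogaster at 5 days of age, with 3 libraries for each of 6 groups, or 18 libraries in all. INT males, INT females, NINT males and NINT females were collected at generation F12 and are described as genetically heterogenous. F0 males and F0 females are the founder generation, with 10 strains named for each library: the marker strains w1118, multiple wing hairs (mwh), flare3 (flr3) and Oregon R flare3 (ORR, flr3), and beside them Canton-S, Harwich, Oregon-R-C, Wild_1A, BER_2 and DGRP-100. The labels do not spell out INT and NINT, although the series title concerns intelligence and longevity, and they do not say whether an F0 library pools the strains. They also do not say whether the libraries of a group came from separate cultures, so p-values measure the spread between these libraries, which may be technical. INT and NINT together are called the F12 lines below.

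The red-brown eye of the fly holds ommochromes, made from tryptophan, and pteridines, made from GTP, both stored in pigment granules. w encodes an ABC transporter subunit that pairs with the product of st to carry ommochrome precursors and with the product of bw to carry pteridine precursors. v encodes tryptophan 2,3-dioxygenase, the entry to ommochrome synthesis, cn encodes kynurenine 3-monooxygenase further along that route, and ry encodes xanthine dehydrogenase, which acts on purines and pteridines. Loss of mwh, which encodes a formin-related regulator of actin, gives several hairs per wing cell, and flr encodes the actin-interacting protein that works with cofilin in actin filament turnover. The founder strain names point to w, mwh and flr: w1118 carries a partial deletion of w, and mwh and flr3 are alleles with wing-hair phenotypes. Counts per gene do not tell alleles apart.

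In the dm6 build, w lies on chromosome X at 2790599 to 2796466 on the minus strand and v on chromosome X at 10923972 to 10925631 on the plus strand. On arm 3L, st spans 16497651 to 16500460, mwh 1200786 to 1232700 and flr 13412843 to 13416453, all on the plus strand. ry lies on the plus strand of 3R at 13032528 to 13038020. On the minus strand of 2R, cn lies at 7782797 to 7785067 and bw at 23527805 to 23538499. The exons of bw overlap those of mi, and w, st, cn and mwh share their span but no exon with other genes. Whether counting used strand is unknown from these sources, and reads of such neighbours may not be fully separated. No sequences of these genes are printed.

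Libraries held 31.79 to 39.23 M counts in males and 31.61 to 58.33 M in females. Ribosomal RNA took 1.84 to 8.80% of counts in males. In females it took 10.4 to 23.2% in INT, 5.94 to 7.36% in NINT and 20.3 to 36.3% in F0. Some libraries stood apart. The flight muscle actin gene Act88F was above 1000 CPM (counts of a gene scaled to 1000000 counts of its library) in INT female library 3, in F0 female libraries 1 and 2 and in F0 male library 1. The summed yolk protein genes Yp1, Yp2 and Yp3, markers of female fat body and ovary, were above 500 CPM in NINT male libraries 2 and 3 and in F0 male libraries 1 and 2. Calls of the members against F0, within a sex or over both sexes, are given without these libraries as well. The called list genes, the flanking genes and the sex differences of NINT over F0 are not. Leaving out the females above 1000 CPM of Act88F leaves F0 females with library 3 alone. Leaving out the males above 500 CPM of yolk protein genes leaves NINT males with library 1 and F0 males with library 3. With 1 library in a group, a lost call in such a fit cannot be read as a test of tissue make-up. The counts of the members per library had medians of 15.5 for cn and 326.5 to 2288.5 for the other members, and all 8 passed the filter on low counts.

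In females v rose and mwh fell in the F12 lines, which is 2 of 8 members at a Benjamini-Hochberg adjusted p under 0.05 in edgeR's quasi-likelihood test, against 16.2% of all genes tested. In males 0 of 8 members were called, against 4.61% of all genes, with 2 members (w and flr) at an unadjusted p under 0.05, against 29.1%, and 0 called by DESeq2, against 16.4%. Over both sexes in 1 fit of 18 libraries, bw rose and w fell in the F12 lines, again 2 of 8 members, against 18% of all genes. The values of the 6 F12 libraries and the 3 F0 libraries of a sex did not overlap for 4 members in females (bw, v and flr higher in the F12 lines, mwh lower), against 12.7% of all genes, and for 0 members in males, against 12.1%. The members' median log2 fold change of F12 lines over F0 was 0.40 in males, 0.05 in females and 0.16 over both sexes, beside medians over all genes of -0.02, -0.01 and -0.06.

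**Figure D1:**
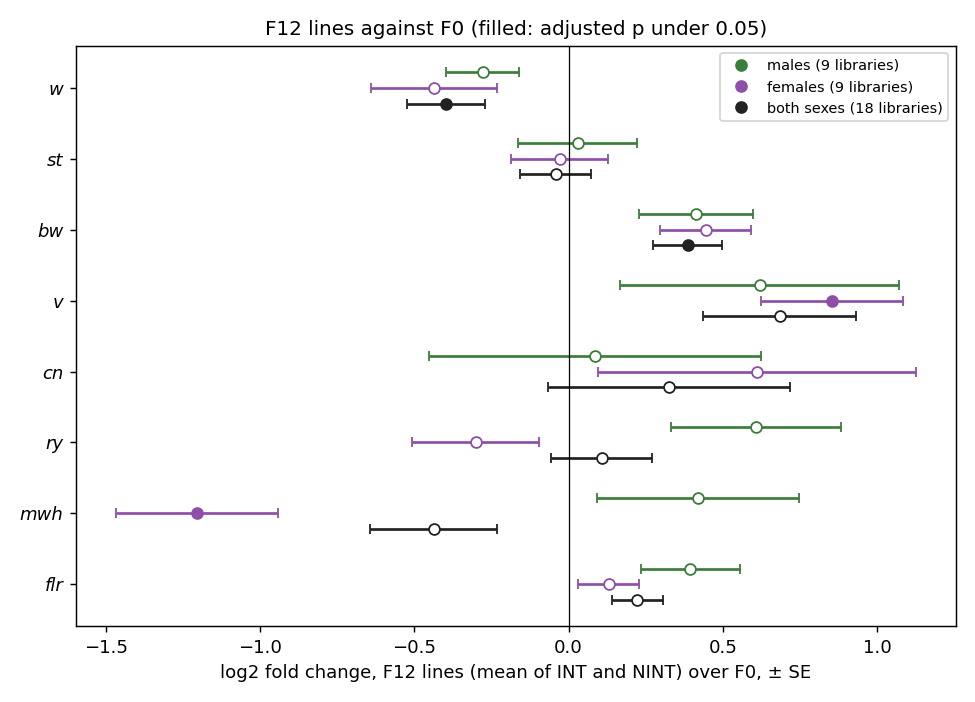
Log2 fold change of F12 lines (mean of INT and NINT) over F0 for each gene, with bars of 1 standard error, in males, females and both sexes; filled points have an adjusted p under 0.05. The filled points are v (0.85) and mwh (-1.20) in females and w (-0.40) and bw (0.39) over both sexes, and mwh lies at 0.42 in males.

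Set against F0 one line at a time, INT had 0 of 8 members called in males, against 1.82% of all genes, and 0 of 8 in females, against 2.12%. At an unadjusted p under 0.05 these counts were 0 in males, against 19.1% of all genes, and 2 in females, against 17.7%. DESeq2 called 0 members in males, against 9.41%, and 1 in females, against 7.46%. NINT had 0 of 8 called in males, against 5.04% of all genes, and 2 of 8 in females (v higher, mwh lower), against 22.5%. In NINT males 4 members had an unadjusted p under 0.05, against 31.9%, and DESeq2 called 2, against 20.8%. The NINT and F0 males were fully separated for 5 members (w lower, and bw, v, ry and flr higher, in NINT), a separation that 48.7% of all genes showed. In females they were separated for 4 members, against 39.4% of all genes. Both lines were compared with the same F0 libraries, so the values of INT and NINT against F0 are not independent.

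Levels are given as CPM with TMM-scaled library sizes, and, where genes are compared with each other, as CPM per kb of exon. Over the 18 libraries the mean level per kb of exon was 26.9 CPM for flr, 16.9 for v, 5.37 for st, 5.32 for w, 4.31 for ry, 3.20 for bw, 1.73 for mwh and 0.251 for cn. The means of st and w lay within 1 SD of each other (1.51 for st and 1.15 for w, n = 18), as did those of w and ry (SD 2.54 for ry). flr had the highest level of the 8 genes per kb in females, at 30.7 to 40.3 CPM per kb. In males v reached 10.8 to 43.6 CPM per kb, a range that took in the 13.3 to 21.9 of flr. cn was barely measured, with 6 to 51 reads per library.

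**Figure D2:**
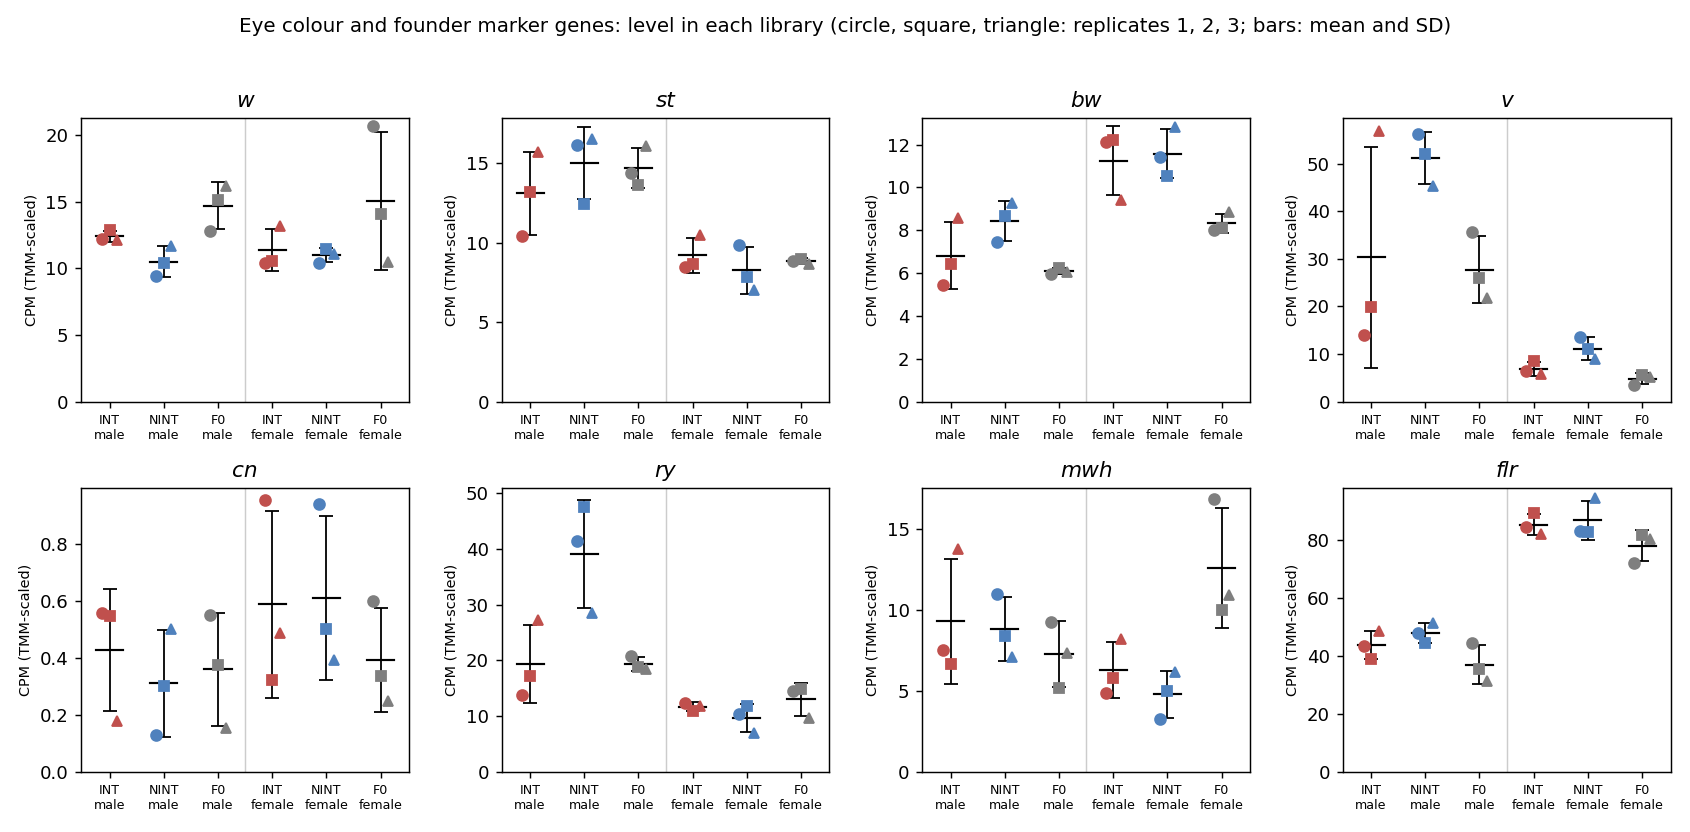
Level of each gene in CPM with TMM scaling (vertical axes from 0) in each of the 18 libraries, by group; circles, squares and triangles are libraries 1, 2 and 3, and bars give the mean and SD. In females v sits at 5.75 to 13.6 CPM in the F12 lines and at 3.52 to 5.69 CPM in F0, while mwh sits at 3.26 to 8.22 CPM in the F12 lines and at 10.01 to 16.9 CPM in F0.

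The shared transporter subunit gene w had 12.2, 12.9 and 12.2 CPM in INT males, 9.41, 10.4 and 11.7 CPM in NINT males, and 12.8, 15.1 and 16.2 CPM in F0 males. Its levels in females were 10.4, 10.6 and 13.2 CPM in INT, 10.4, 11.5 and 11.1 CPM in NINT, and 20.7, 14.1 and 10.4 CPM in F0. F0 had the highest group mean in both sexes, and F0 female library 3 lay within the range of the F12 females. The 6 group means ran from 10.5 ± 1.14 CPM in NINT males to 15.1 ± 5.20 CPM in F0 females (SD, n = 3 each). Neighbouring means in that order lay within 1 SD of each other except those of INT males (12.4 ± 0.390 CPM) and F0 males (14.7 ± 1.74 CPM), whose ranges just met. Over both sexes w was 1.32-fold lower in the F12 lines (log2 -0.40, SE 0.13), with an adjusted p of 0.041 in edgeR's quasi-likelihood test. The change was -0.28 in males (SE 0.12, adjusted p = 0.164) and -0.44 in females (SE 0.20, adjusted p = 0.154), neither of them called.

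The call for w over both sexes depended on single libraries and on the scaling, and it held in 2 of the 18 fits that left out 1 library. The fit without the females above 1000 CPM of Act88F keeps only library 3 of F0 females, at 10.4 CPM of w. In it the log2 fold change was -0.05 over both sexes and 0.04 in females, and w was not called. Beside it, the summed level of the 10 muscle markers was 5118 to 24260 CPM in INT females, 3536 to 5026 CPM in NINT females and 8934 to 67620 CPM in F0 females, with none of them at 0. The part of muscle RNA in the difference of w was not tested beyond leaving those libraries out. In bulk samples, fewer cells of a type and less RNA per cell cannot be told apart. Leaving out ribosomal RNA before scaling gave -0.27 (adjusted p = 0.0985), with the median of all genes at 0.05 in place of -0.06. Relative to that median w stood at -0.33 in both fits. Over the 18 fits without 1 library, w relative to the median of each fit ran from -0.45 (without F0 female library 3) to -0.19 (without F0 female library 1).

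st, the ommochrome partner of w, had 10.4, 13.2 and 15.7 CPM in INT males, 16.2, 12.4 and 16.5 CPM in NINT males and 14.4, 13.6 and 16.1 CPM in F0 males. In females it had 8.50, 8.68 and 10.5 CPM in INT, 9.87, 7.87 and 7.02 CPM in NINT and 8.87, 9.001 and 8.64 CPM in F0. The F12 ranges enclosed the F0 ranges in both sexes. The log2 fold change of F12 lines over F0 was -0.04 over both sexes (SE 0.11, adjusted p = 0.834), and its sign changed with the scaling. The order of group means split by sex, with NINT, F0 and INT males above all female groups, and within a sex the groups differed by less than their spread.

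bw, the pteridine partner, had 5.47, 6.44 and 8.56 CPM in INT males, 7.44, 8.66 and 9.28 CPM in NINT males and 5.97, 6.25 and 6.07 CPM in F0 males. Its levels in females were 12.1, 12.2 and 9.41 CPM in INT, 11.4, 10.5 and 12.8 CPM in NINT and 8.03, 8.11 and 8.83 CPM in F0. All F12 females lay above all F0 females, and all NINT males above all F0 males, while INT males spanned the F0 males. Of all genes 12.7% were separated, in either direction, between F12 and F0 females, and 48.7% between NINT and F0 males. Over both sexes bw rose 1.31-fold in the F12 lines (log2 0.39, SE 0.11, adjusted p = 0.0277 in edgeR's quasi-likelihood test). The value was 0.41 in males (SE 0.18, adjusted p = 0.177) and 0.44 in females (SE 0.15, adjusted p = 0.0674). The call was lost without F0 female library 1 (log2 0.37, adjusted p = 0.0594) or 2 (log2 0.38, adjusted p = 0.0692). It was also lost without the males above 500 CPM of yolk protein genes (log2 0.50), with 1 library left in NINT and in F0 males. Without the females above 1000 CPM of Act88F the log2 value was 0.48, not called, with 1 F0 female library left. Beside it, 4 of 14 photoreceptor markers (Rh4, Rh6, ninaE and Arr2) were called higher in the F12 lines over both sexes and 0 were called lower. Of all genes 18% were called. Of the 14 markers 8 had a log2 value above 0 and 6 below, with a list median of 0.02. Their part in the difference of bw was not tested. mi, whose exons overlap those of bw on the other strand, had 0.33 over both sexes (SE 0.12, adjusted p = 0.0687). In females it had 0.68 in NINT over F0 (adjusted p = 0.0322 in the same test) and 0.38 in INT over F0 (adjusted p = 0.3). Its reads may be among those of bw if strand was not used.

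Within each library, the balance of the 3 transporter genes was taken as each gene's share of their summed CPM per kb. w made up 38.4 ± 5.02% in INT males, 30.7 ± 2.54% in NINT males and 40.7 ± 2.43% in F0 males (SD, n = 3 each, as below). In females w made up 36.4 ± 3.28% in INT, 36.7 ± 2.95% in NINT and 46.3 ± 8.77% in F0. bw made up 17.8 ± 1.92% in INT males, 21.3 ± 2.28% in NINT males and 14.6 ± 1.05% in F0 males. Its share in females was 31.2 ± 5.65% in INT, 33.2 ± 3.25% in NINT and 22.9 ± 4.56% in F0. The bw share was thus higher in each F12 group than in F0 of the same sex on average, and in males the F12 libraries at 16.6 to 23.6% did not overlap the F0 libraries at 13.4 to 15.2%. In females the ranges overlapped, since INT female library 3 had 24.7% and F0 female library 3 had 27.6%. st took 43.7, 48.0 and 44.7% on average in INT, NINT and F0 males and 32.4, 30.1 and 30.8% in INT, NINT and F0 females. These shares do not depend on the scaling between libraries, and they were not tested. Reads of mi may be among those of bw if strand was not used. The length used for bw was 2738 exon bases. The deposited annotation gives 3134, with which the bw share would be lower in every library.

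**Figure D3:**
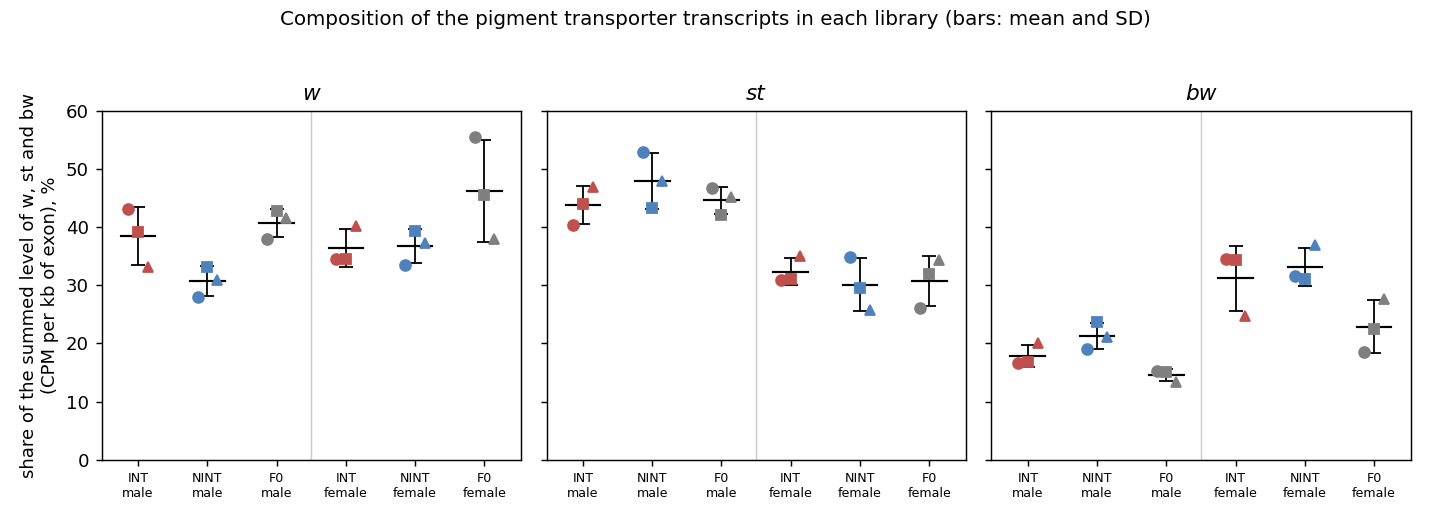
Share of w, st and bw in their summed level (CPM per kb of exon, percent) in each of the 18 libraries by group, with symbols for libraries 1 to 3 and bars of mean and SD. The bw share averages 17.8% in INT, 21.3% in NINT and 14.6% in F0 males, and 31.2%, 33.2% and 22.9% in INT, NINT and F0 females.

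Of the ommochrome enzymes, v showed the widest range of the 8 genes per kb of exon, at 2.69 to 43.6 CPM per kb. It had 14.1, 19.9 and 56.8 CPM in INT males, 56.2, 52.0 and 45.2 CPM in NINT males and 35.5, 26.0 and 21.7 CPM in F0 males. INT male library 3 stood with the NINT males, and the other INT males lay below all F0 males. In females v had 6.41, 8.48 and 5.75 CPM in INT, 13.6, 10.96 and 8.92 CPM in NINT and 3.52, 5.69 and 5.20 CPM in F0. The female groups did not overlap, in the order NINT, INT, F0, although the lowest INT value and the highest F0 value were close. Of all genes 37.7% were separated between INT and NINT females, 18.8% between INT and F0 and 39.4% between NINT and F0. Between F12 and F0 females 12.7% were separated. In F12 females v rose 1.81-fold over F0 (log2 0.85, SE 0.23, adjusted p = 0.0406 in edgeR's quasi-likelihood test), higher in 6 of 6 F12 libraries than in any F0 library. In NINT females alone it rose 2.29-fold over F0 (log2 1.198, SE 0.26, adjusted p = 0.0181), and in INT females the log2 value was 0.51 (SE 0.26, adjusted p = 0.321). The NINT call was lost without NINT female library 1 (1.04, adjusted p = 0.0742) or 2 (1.21, adjusted p = 0.0586). It was also lost without the females above 1000 CPM of Act88F (1.10), which leaves 1 F0 female library.

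In males the log2 fold change of v was 0.62 for F12 lines over F0 (SE 0.45, adjusted p = 0.369), 0.24 for INT (SE 0.51, adjusted p = 0.79) and 0.99 for NINT (SE 0.51, adjusted p = 0.21). The call in F12 females was lost when a single library was left out in 7 of 9 cases, with log2 values of 0.68 to 0.99 and adjusted p of 0.0206 to 0.118 over the 9. Without the females above 1000 CPM of Act88F, which leaves only F0 female library 3, the value was 0.81 and not called. The direction was kept in each of these.

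cn, which acts after v, had 0.558, 0.549 and 0.180 CPM in INT males, 0.128, 0.300 and 0.503 CPM in NINT males and 0.551, 0.376 and 0.155 CPM in F0 males. In females it had 0.956, 0.324 and 0.488 CPM in INT, 0.941, 0.501 and 0.395 CPM in NINT and 0.599, 0.337 and 0.247 CPM in F0. The groups overlapped throughout. The log2 fold change of F12 lines over F0 was 0.33 over both sexes (SE 0.39, adjusted p = 0.589), and no difference was detectable at this depth.

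ry had 13.8, 17.2 and 27.2 CPM in INT males, 41.3, 47.5 and 28.5 CPM in NINT males and 20.8, 18.9 and 18.5 CPM in F0 males. Its levels in females were 12.4, 10.8 and 11.8 CPM in INT, 10.4, 11.7 and 6.87 CPM in NINT and 14.5, 14.9 and 9.63 CPM in F0. NINT males stood above all other groups, with no overlap, at 39.1 ± 9.67 CPM, while INT males at 19.4 ± 6.98 CPM and F0 males at 19.4 ± 1.24 CPM did not differ beyond their spread (SD, n = 3 each). Of all genes 19.6% were separated between INT and NINT males, and 48.7% between NINT and F0 males. In NINT over F0 the log2 fold change was -0.44 in females (SE 0.24, adjusted p = 0.197) and 1.12 in males (SE 0.31, adjusted p = 0.0733), and neither was called. The sex difference of NINT over F0 (the female log2 value less the male one) was -1.44 for ry (SE 0.38, adjusted p = 0.0341 in edgeR's quasi-likelihood test). For F12 lines over F0 it was -0.80 (SE 0.33, adjusted p = 0.138). Without the females above 1000 CPM of Act88F, which leaves 1 F0 female library, the female value of NINT over F0 was 0.01. Without the males above 500 CPM of yolk protein genes, which leaves 1 library each of NINT and F0 males, the male value was 1.31.

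Of the wing-hair genes, mwh had 7.52, 6.69 and 13.8 CPM in INT males, 11.01, 8.41 and 7.13 CPM in NINT males and 9.30, 5.19 and 7.35 CPM in F0 males. In females it had 4.85, 5.83 and 8.22 CPM in INT, 3.26, 4.97 and 6.17 CPM in NINT and 16.9, 10.01 and 10.9 CPM in F0. The male groups overlapped, and all F12 females lay below all F0 females, which had the highest mean of the 6 groups at 12.6 ± 3.72 CPM (SD, n = 3). Of all genes 12.7% were separated, in either direction, between F12 and F0 females. In F12 females mwh was 2.30-fold lower than in F0 (log2 -1.20, SE 0.26, adjusted p = 0.0236 in edgeR's quasi-likelihood test), lower in 6 of 6 F12 libraries. It fell 2.64-fold in NINT females against F0 (log2 -1.40, SE 0.32, adjusted p = 0.0206), and the value was -1.004 in INT females (SE 0.32, adjusted p = 0.169). The NINT call was lost without NINT female library 1 (-1.18, adjusted p = 0.0756) or 2 (-1.43, adjusted p = 0.064). It was lost without F0 female library 1 (-1.13, adjusted p = 0.0508) or 2 (-1.54, adjusted p = 0.0508). The same held without the females above 1000 CPM of Act88F (-1.19), which leaves 1 F0 female library. In males the log2 fold change was 0.42 (SE 0.33, adjusted p = 0.398).

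The sex difference of mwh was -1.51 for F12 lines over F0 (SE 0.42, adjusted p = 0.0534) and -1.67 for NINT over F0 (SE 0.48, adjusted p = 0.0458). Of the 8 members, 0 were called in the sex difference of F12 lines over F0, against 3.97% of all genes. At an unadjusted p under 0.05 there were 2, against 27.1%, and DESeq2 called 1, against 13.5%. For NINT over F0, 2 of 8 (ry and mwh) were called, against 8.15%. Leaving out 1 female library ended the call of mwh in F12 females in 5 of 9 cases, with log2 values of -1.34 to -0.93 over the 9. Without the females above 1000 CPM of Act88F, which leaves 1 F0 female library, the value was -1.11 in F12 females and not called. Beside mwh, 9 of 10 muscle markers and 8 of 10 nervous system markers were lower in F12 females than in F0 females by the same test, and 0 were higher. The part of those tissues in the difference was not tested beyond leaving libraries out.

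The span of mwh holds 8 other genes, and some of them moved with it. CG9119 fell in F12 females by a log2 value of 1.82 (SE 0.20, adjusted p = 0.0021) and CG32335 fell by 1.94 (SE 0.29, adjusted p = 0.00588). In males these values were -0.11 (adjusted p = 0.718) and 0.70 (adjusted p = 0.162). The lysozyme genes LysC, LysD, LysE and LysP in the same span fell by 0.75, 0.69, 0.85 and 0.65 in F12 females (adjusted p = 0.0178, 0.0333, 0.0328 and 0.0195), while LysB (-0.89, adjusted p = 0.0767) and LysS (1.18, adjusted p = 0.169) were not called. In F12 males LysP rose by 1.97 (SE 0.35, adjusted p = 0.0194), and the other lysozyme genes were not called. None of these genes shares an exon with mwh.

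flr had 43.5, 39.0 and 48.5 CPM in INT males, 47.8, 44.3 and 51.2 CPM in NINT males and 44.3, 35.3 and 31.3 CPM in F0 males. Its levels in females were 84.4, 89.1 and 82.1 CPM in INT, 83.1, 82.6 and 94.5 CPM in NINT and 72.0, 81.6 and 80.4 CPM in F0. All F12 females lay above all F0 females, by a narrow margin, and the male ranges overlapped. Of all genes 12.7% were separated, in either direction, between F12 and F0 females. The log2 fold change of F12 lines over F0 was 0.39 in males (SE 0.16, adjusted p = 0.153), 0.13 in females (SE 0.10, adjusted p = 0.348) and 0.22 over both sexes (SE 0.08, adjusted p = 0.0723). Over both sexes it was called in 9 of 26 alternative fits, among them DESeq2 (0.24, adjusted p = 0.0238), ribosomal RNA left out (0.34, adjusted p = 0.0324) and no filter on low counts (0.35, adjusted p = 0.0352). In the last pair of fits the median of all genes was 0.05. Over the 3 groups of a sex it averaged 42.8 ± 6.48 CPM in males and 83.3 ± 6.14 CPM in females (SD, n = 9 each).

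INT and NINT were also compared with each other. In males 0 of 8 members were called, against 0.0399% of all genes, in females 0 of 8, against 0.995%, and over both sexes 0 of 8, against 1.95%. At an unadjusted p under 0.05 there was 1 member in each of these comparisons: ry in males, against 16.4% of all genes, and v in females, against 15%, and over both sexes, against 20.7%. DESeq2 called 1 member in males, against 6.01%, 0 in females, against 6.57%, and 0 over both sexes, against 8.60%. In males INT male library 3 decided the result: without it 3 members were called, beside 26.1% of all genes, with log2 fold changes of INT over NINT of -0.60 for bw (adjusted p = 0.019), -1.69 for v (adjusted p = 0.00682) and -1.44 for ry (adjusted p = 0.0085). The same library decided the count for NINT over F0 in males, where 5 members (w, bw, v, ry and flr) were called without it, beside 36.5% of all genes, and 0 with it; the 9 male libraries share 1 estimate of the spread. With the 6 libraries of NINT and F0 males alone 4 members were called, beside 32.5% of all genes. These counts rose for genes at large as for the members.

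Males and females were also compared over the 3 groups. Of the 8 members 5 were called, against 81.2% of all genes. v was 4.88-fold higher in males (log2 2.29, SE 0.24), at 36.4 ± 16.7 CPM in males and 7.61 ± 3.18 CPM in females (SD, n = 9 each). ry was 2.16-fold higher in males (log2 1.11, SE 0.16) and st 1.63-fold higher (log2 0.70, SE 0.11). flr was 1.96-fold lower in males (log2 -0.97, SE 0.08) and bw 1.46-fold lower (log2 -0.54, SE 0.10). The adjusted p of these in edgeR's quasi-likelihood test ran from 1.42e-08 for flr to 0.00018 for bw, and all 5 were called under every alternative fit except a limit of 2-fold, which kept v and ry. The gene mi, whose exons overlap those of bw, was lower in males too (log2 -1.81, SE 0.11). Its reads may be among those of bw if strand was not used.

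w, carried on the X chromosome like v, had a log2 value of 0.01 (SE 0.12, adjusted p = 0.949), with 12.5 ± 2.11 CPM in males and 12.5 ± 3.35 CPM in females (SD, n = 9 each). mwh (0.22, adjusted p = 0.309) and cn (-0.51, adjusted p = 0.205) were not called either. The summed level of 14 photoreceptor markers was 4618 to 8498 CPM in males and 1789 to 3018 CPM in females, and 13 of the 14 were called higher in males and 0 lower. Of 11 Malpighian tubule markers 7 were called higher in males and 3 lower, and of 9 fat body markers 3 were higher and 0 lower. Of all genes 81.2% were called. The part of these tissues in the sex differences of the members was not tested. The median log2 fold change over all genes in this comparison was 0.21, and it ran from 0.08 to 0.38 over the alternative fits; w ran from -0.06 to 0.11 over the fits without 1 library. Without the females above 1000 CPM of Act88F, which leaves 1 F0 female library, w was called higher in males (0.23). Without the males above 500 CPM of yolk protein genes, which leaves 1 library each of NINT and F0 males, cn was called lower in males (-1.33).

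Known genes of the pathways around the members were read as lists. Of 7 tryptophan and ommochrome genes, v, cn and st included, v was the only one called in F12 females and 0 were called over both sexes. Their median log2 fold change over both sexes was 0.13, beside -0.06 over all genes. Of 17 pteridine synthesis genes, 1 rose and 3 fell in the F12 lines over both sexes, a share near the 18% of all genes called, with a list median of -0.02. Pu, which encodes GTP cyclohydrolase and opens the pathway, fell by 0.80 (SE 0.21, adjusted p = 0.0195), se, which acts in drosopterin synthesis, fell by 0.87 (SE 0.27, adjusted p = 0.0395), and Dhpr, a dihydropteridine reductase gene, fell by 0.41 (SE 0.08, adjusted p = 0.00501). Mocs2, needed for the molybdenum cofactor that the ry enzyme uses, rose by 0.38 (SE 0.11, adjusted p = 0.0305). For Pu the female means were 28.5 ± 13.9 CPM in INT, 9.77 ± 1.95 CPM in NINT and 44.5 ± 21.6 CPM in F0 (SD, n = 3 each).

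Of 18 pigment granule and vesicle genes, 1 was called over both sexes, and 0 fell. It was mah, listed as CG13646, with 0.134 to 0.674 CPM in INT males, 0.765 to 1.31 CPM in NINT males and 0 to 0.0940 CPM in F0 males (adjusted p = 0.0358 in F12 males). No fold is given, since F0 stood at or near 0 counts. Of 15 ABC transporters of the ABCG family, w, st and bw included, 2 rose and 2 fell over both sexes, beside the 18% of all genes called. Besides bw and w, CG31689 rose by 0.47 (SE 0.14, adjusted p = 0.0329), and CG9664 fell by 0.9997 (SE 0.21, adjusted p = 0.00617), with 3.62 ± 1.33 CPM in INT females, 2.36 ± 0.318 CPM in NINT females and 11.6 ± 5.78 CPM in F0 females (SD, n = 3 each).

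Planar cell polarity is the system that orients wing hairs. Of 16 such genes tested, mwh included, 2 rose and 7 fell in F12 females, with a median log2 fold change of -0.87 beside -0.01 over all genes, and 0 rose and 1 fell in F12 males. Of all genes 16.2% were called in females and 4.61% in males. The gene called in both sexes was ft, which encodes an atypical cadherin. It averaged 3.47 ± 0.527 CPM in INT males, 3.08 ± 0.536 CPM in NINT males and 11.1 ± 0.123 CPM in F0 males (SD, n = 3 each), and it fell by 1.68 in F12 males (SE 0.13, adjusted p = 0.00113) and by 2.08 in F12 females (SE 0.47, adjusted p = 0.0247). ds, the cadherin partner of ft, fell by 2.01 (adjusted p = 0.0398) and fj, a kinase gene of the same system, by 1.94 (adjusted p = 0.0288) in F12 females. dgo rose by 0.92 (adjusted p = 0.0176) and Vang by 0.58 (adjusted p = 0.025). In F0 females ds ran from 7.25 to 60.5 CPM and ft from 5.62 to 36.6 CPM, so the libraries of that group differed widely. The muscle and nervous system markers, lower in F12 females as given above, moved with this list, and their part in it was not tested: the nervous system sum was 561 to 846 CPM in INT females, 353 to 466 CPM in NINT females and 579 to 2056 CPM in F0 females.

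Of 23 actin turnover genes, flr included, 0 rose and 1 fell over both sexes, beside 18% of all genes called. The one that fell was f, which encodes a bristle actin-bundling protein, at log2 -1.51 (SE 0.28, adjusted p = 0.00321). In F12 females capt, a cyclase-associated protein gene, also fell, by 0.43 (SE 0.12, adjusted p = 0.0424). The median of the list over both sexes was 0.08, beside -0.06 over all genes.

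The 5 nearest tested genes on each side of each member were read in the comparison of F12 lines with F0 over both sexes, to show the members beside their neighbours. Of these 80 genes, 5 rose and 18 fell, together 28.8%, beside the 18% of all genes. The count was 3 of 10 around w, 1 around st, 2 around bw, 4 around v, 4 around cn, 1 around ry, 4 around mwh and 4 around flr. The 4 around mwh (CG32335, CG9119, LysC and LysD) start within the span of mwh and are among the genes given above for that span. Around bw the called neighbours were RabX1 (0.49, adjusted p = 0.00982) and CG3906 (0.59, adjusted p = 0.0329), both higher in the F12 lines, as bw was. Around v the 4 called genes were lower in the F12 lines: Rab9Fa (-1.84), Rab9Fb (-1.30), C901 (-0.96) and Myo10A (-0.83), while v itself stood at 0.68. The closest tested neighbour on each side of w was not called, and of the 3 called genes around w CG14419 and CG3588 were higher and CR43494 lower. These windows reach 129 kb at most, and the neighbours were not tested as a group.

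**Figure D4:**
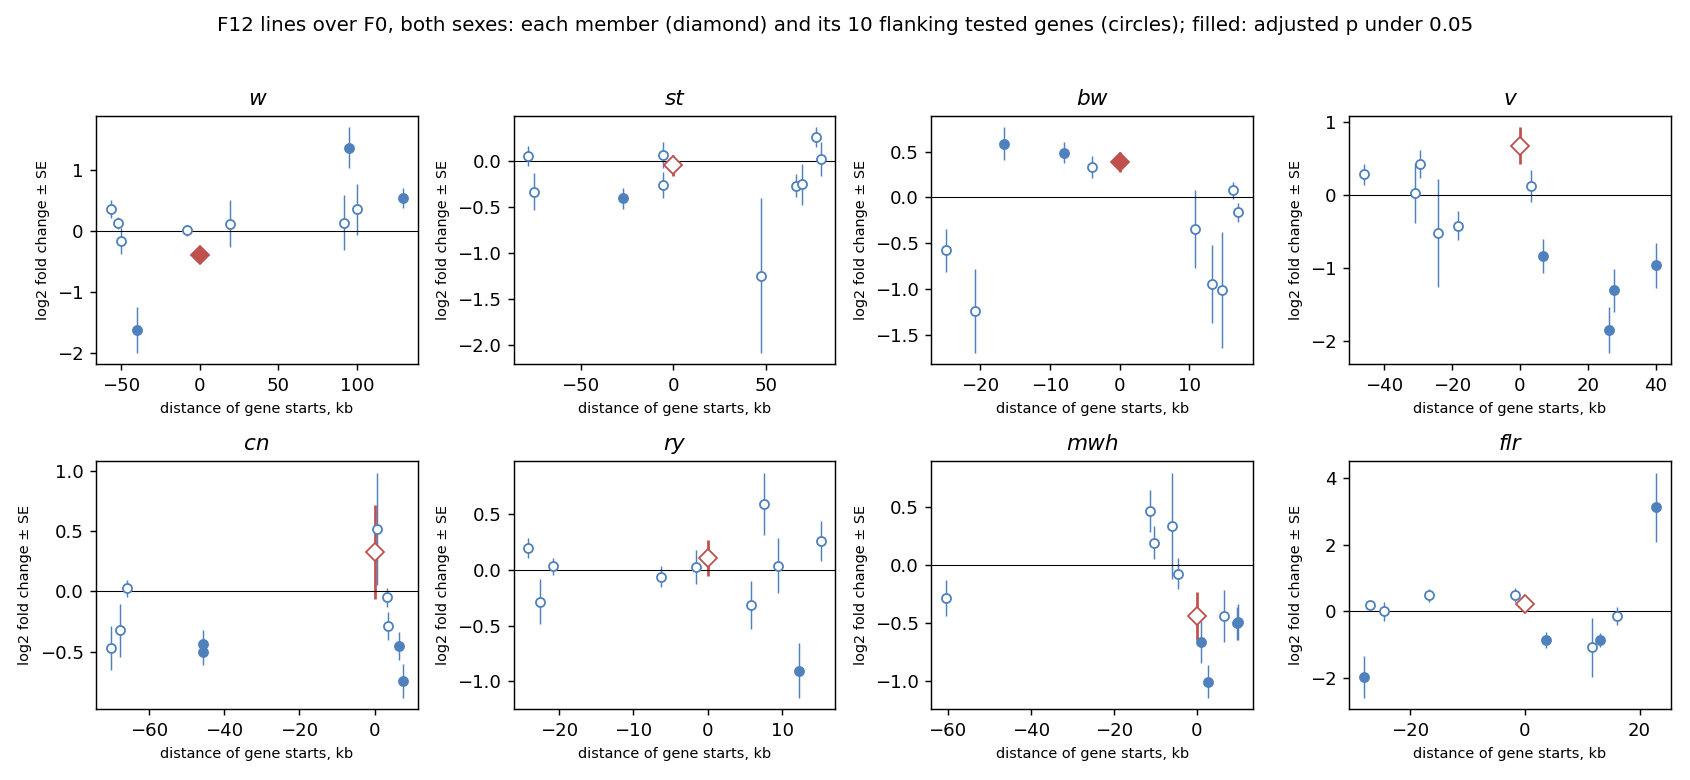
Log2 fold change of F12 lines over F0 over both sexes, with bars of 1 standard error, for each gene (diamond) and its 10 flanking tested genes (circles), against the distance between gene starts in kb; filled symbols have an adjusted p under 0.05. Around v all 4 filled neighbours lie below 0 while v lies at 0.68, and around bw both filled neighbours lie above 0, as bw does at 0.39.

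Genes with the most similar pattern were taken by Pearson correlation of log2 CPM across the 18 libraries after each sex's mean was subtracted, among 8335 genes with at least 5 CPM on average in both sexes. The libraries share their depth and tissue make-up across genes, so these values are a description. The closest genes were CG30497, CG10082 and CG43902 for w (r = 0.95, 0.93 and 0.93), and wls, Ssrp and mor for bw (0.90, 0.89 and 0.88). For v they were CG43064, jub and CG15439 (0.94, 0.93 and 0.93), and for ry they were pug, ade3 and CG10824 (0.91, 0.89 and 0.89). mwh was closest to CG33110, sr and PGRP-LA (0.87, 0.84 and 0.83), and flr to Tcp-1eta, betaTub56D and CG6967 (0.92, 0.90 and 0.89). st had no gene above 0.71, the value of Ptp52F, and cn was too sparse for such a ranking.

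Among the members themselves, v and ry had r = 0.89 across the 9 male libraries and -0.47 across the 9 female libraries. v and mwh had 0.63 in males and -0.92 in females. w and flr were opposed in both sexes, at -0.81 in males and -0.73 in females, and bw and v went together, at 0.83 in males and 0.71 in females. Each value pools 3 groups and the libraries that stood apart.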

How the data were processed

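Stranded total RNA libraries (Trizol extraction, SMARTer kit, per the labels' protocols) were deposited by the authors as raw read counts per gene, per the file headers, in 1 table for each sex. The dm6 build and DESeq2 are named in the submitters' processing notes; aligner, counter and use of strand were not given in the sources used here. From these counts, each sex was fitted with its 9 libraries and both sexes with 18, in edgeR 4.0.16 (R 4.3.3, limma 3.58.1). The fits used TMM scaling, filterByExpr (minimum count 10, minimum total 15), the quasi-likelihood test and Benjamini-Hochberg adjustment over all genes tested. A prior count of 2 was used only for the log2 CPM of the correlations. An adjusted p under 0.05 was called. Levels are CPM with TMM scaling over the 18 libraries, and lengths are merged exons of Ensembl release 115. These lengths were 2738 bases for bw and 4747 for mwh, against 3134 and 5002 in the deposited annotation. With the latter the levels of bw and mwh per kb would be lower. For the other members both lengths were the same. The scripts were tested on simulated data.

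Alternatives were RLE scaling, 2 other filters on low counts, DESeq2 1.42.0, a block for the replicate number, scaling without ribosomal RNA, only the 2 groups compared, a limit of 2-fold, each library left out, and the libraries that stood apart left out. Named genes were all 8 members, up to 4 called genes by adjusted p per list, and flanking or most similar genes by rank; other called list genes named in the text were chosen after their values were seen. The members, lists and tests were chosen with earlier results of these data known. Each library counted as a replicate. Libraries of a group differed beyond sampling noise (chi-square per gene 53.4 to 1230 over 18 pairs), which cannot show that they came from separate cultures. Same-numbered libraries of a sex did not deviate together (r = -0.39 to 0.417, over 0.1 in 5 of 18 pairs), so they were not treated as pairs.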

Additional observations from a re-analysis of the deposited data

Results flagged for a closer look

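Of the members, 2 had a sex difference in NINT over F0 that passed edgeR's quasi-likelihood test with Benjamini-Hochberg adjustment. For ry the female log2 value less the male one was -1.44 (adjusted p = 0.0341), with log2 fold changes of -0.44 in females and 1.12 in males. For mwh it was -1.67 (adjusted p = 0.0458), with -1.40 in females and 0.39 in males. Groups of 3 libraries were not screened for single outlying samples. These NINT sex differences were fitted under the main setting only; that of mwh for F12 lines over F0 ran from -1.82 to -1.25 over the alternatives.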

How the results depend on the processing

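Over 51 results and 1078 alternative values, 932 kept direction and side of the threshold, 57 lost a call, 51 gained one and 38 changed sign. The number of the 8 members called, given as the range over fits without 1 library, was 0 for F12 males, 0 for INT males, 0 to 5 for NINT males, 0 to 3 for INT against NINT in males, 0 to 4 for F12 females, 0 to 2 for INT females, 0 to 5 for NINT females, 0 to 3 for F12 lines over both sexes, 0 to 3 for INT against NINT over both sexes and 0 to 2 for the sex difference. Counts in F12, INT and NINT females and the sex difference peaked without F0 female library 3. There 49.0, 32.2, 51.1 and 29.4% of all genes were called. Those in NINT males and in INT against NINT peaked without INT male library 3, beside 36.5%, 26.1% (males) and 17.5% (both sexes). Over these fits 10.1 to 34.6% of all genes were called over both sexes, 0.957 to 12.2% in F12 males and 0.185 to 3.17% in INT males. DESeq2 called 2 in NINT males (20.8% of all genes), 1 in INT against NINT in males (6.01%) and 1 in INT females (7.46%). It called 3 in NINT females (34.2%), 4 over both sexes (24.5%) and 1 in the sex difference (13.5%). With only the 2 groups compared, NINT males had 4, beside 32.5% of all genes. A 2-fold limit left 1 in F12 females, 0 over both sexes and 2 for males against females. Of all genes it left 9.77, 6.66 and 50.6%. v and mwh lost their calls in F12 and NINT females, and w and bw theirs over both sexes, without females above 1000 CPM of Act88F. w and bw also lost theirs over both sexes without males above 500 CPM of yolk protein genes. These fits leave 1 library in F0 females, or in NINT and F0 males. Calls over all genes fell in them too. A filter of 5 CPM gave 1 in the sex difference, beside 5.36% of all genes.

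With the replicate number as a block in edgeR's quasi-likelihood test, 0 members were called in F12 females (v 0.85, adjusted p = 0.0921, mwh -1.25, adjusted p = 0.067). In NINT females 0 were called (v 1.204, adjusted p = 0.0501, mwh -1.44, adjusted p = 0.0539). Over both sexes 1 was called (bw 0.38, adjusted p = 0.042, w -0.40, adjusted p = 0.0667). Of all genes 3.35, 6.45 and 14.4% were called in these fits.

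The values that changed sign are these. For F12 males st ran from -0.0782 to 0.126 and cn from -0.28 to 0.56 without 1 library, and st was -0.0293 without the yolk-high males. For F12 females st ran from -0.10 to 0.0255 without 1 library. Without the Act88F-high females w was 0.0403 in F12, 0.00747 in INT and 0.073 in NINT females, and ry was 0.14 in F12 and 0.00536 in NINT females. Over both sexes st was 0.0886 with no filter, 0.0824 with ribosomal RNA left out, 0.0728 without the yolk-high males, 0.0618 without the Act88F-high females and -0.0662 to 0.13 without 1 library. For males against females w ran from -0.0596 to 0.11 without 1 library. The cause of these changes was not tested.

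Calls over all genes moved by more than 1.5 times: 694 (0 to 2470) for F12 males, 274 (0 to 1416) for INT males, 759 (0 to 5546) for NINT males, 6 (0 to 3956) for INT against NINT in males, 2136 (316 to 6563) for F12 females, 279 (30 to 4310) for INT females, 2961 (583 to 6851) for NINT females, 131 (3 to 1320) for INT against NINT in females, 2759 (176 to 5352) over both sexes, 299 (13 to 2696) for INT against NINT over both sexes, 608 (1 to 4534) for the sex difference and 12429 (7750 to 12751) for males against females. Where the lowest count was 0, 862, 611, 766 and 1820 genes had an unadjusted p under 0.05. Over both sexes, 785 genes were higher and 1974 lower, against 1594 higher and 1463 lower with ribosomal RNA left out and 1427 higher and 1416 lower with no filter; the all-gene median was -0.06, 0.05 and 0.05. With 3 libraries a group, 6 to 51 reads of cn per library and groups whose libraries differ in tissue markers, small differences were not detectable.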
